A study of Homo sapiens with 2 samples.

Results

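Ephrins, semaphorins, Slits and netrins are the classical axon guidance ligands, and together with their receptors they made up 64 of the 16021 rows of the expression table. They were picked by gene symbol alone: every EFNA, EFNB, EPHA and EPHB gene, the lettered semaphorins, plexins, neuropilins, SLIT1 to SLIT3, ROBO1 to ROBO4, NTN1, NTN4, DCC, NEO1 and UNC5A to UNC5D. SEMA5B, EPHA1, ROBO4 and DCC also fit the rule but have no row among the 16021. RNA was sequenced from HGC-27, an established human gastric cancer line, transduced with a lentivirus carrying either a DDX5 shRNA or a non-targeting shRNA. Both cultures received puromycin 48 h after transduction and were harvested after 1 week, so they share the virus and the selection. Each condition is 1 library. No p-value or standard error can therefore be given, the spread between cultures was not measured, and an effect of the hairpin cannot be told apart from a difference between cultures or libraries.

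These 4 ligand systems steer growing axons, and the same proteins act in epithelia, vessels and tumours. Ephrins are membrane-bound and signal to EPH receptor tyrosine kinases on the neighbouring cell, with signals running in both directions. Semaphorins act through plexins, for which neuropilins serve as co-receptors when the ligand is a secreted class 3 semaphorin. SLIT proteins repel through ROBO receptors, whereas netrins attract through DCC and neogenin and repel through UNC5 receptors, some of which are also described as dependence receptors that can trigger cell death when no ligand is bound.

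The knockdown and the cell identity were checked first. DDX5, a DEAD-box RNA helicase, stood at 50.78 FPKM with the DDX5 shRNA and at 170.5 FPKM with the non-targeting shRNA, 3.36-fold lower. FPKM counts fragments relative to transcript length and sequencing depth, and levels of different genes can be compared within a library. From the steps between low values of short genes, the depth came to an estimated 1.51e+07 fragments in the DDX5 shRNA library (110 genes) and 1.52e+07 in the non-targeting library (115 genes). Epithelial markers were low for a line labelled as gastric adenocarcinoma: the 6 of 7 listed genes with a value summed to 12.05 FPKM with the DDX5 shRNA and 8.69 FPKM with the non-targeting shRNA, and CDH1 (E-cadherin) was at 0.07 FPKM with the DDX5 shRNA and 0.36 FPKM with the non-targeting shRNA. The members of that sum did not move together: CLDN7 (claudin-7) was at 9.84 FPKM with the DDX5 shRNA and 2.36 FPKM with the non-targeting shRNA, and KRT8 (keratin 8) at 1.31 FPKM with the DDX5 shRNA and 5.24 FPKM with the non-targeting shRNA. Of 6 gastric mucosa markers, 5 had no row in the expression data and MUC6 was at 0.02 FPKM with the DDX5 shRNA and 0.07 FPKM with the non-targeting shRNA. Of 6 mesenchymal markers 5 were at 1 FPKM or more and CDH2 (N-cadherin) was at 0 FPKM with the DDX5 shRNA and 0.07 FPKM with the non-targeting shRNA. The 5 did not move together. VIM (vimentin) was at 1270.59 FPKM with the DDX5 shRNA and 1583.62 FPKM with the non-targeting shRNA, and COL1A1 at 260.5 and 285.04 FPKM, in the same order. Higher with the DDX5 shRNA were TWIST1 (199 against 98.96 FPKM), ZEB1 (17.13 against 14 FPKM) and FN1 (5.99 against 4.76 FPKM). The endothelial markers with a row, VWF, TEK and CLDN5, reached at most 0.06 FPKM in the DDX5 shRNA library and 0.05 FPKM in the non-targeting library. Among neuronal markers, SYN1, SNAP25 and RBFOX3 stayed at or below 0.33 FPKM in both libraries, while the tubulin gene TUBB3 stood at 22.98 FPKM with the DDX5 shRNA and 39.83 FPKM with the non-targeting shRNA. Haematopoietic markers with a row stayed at or below 0.79 FPKM in both libraries. The glial marker OLIG2 was at 1.43 FPKM with the DDX5 shRNA and 1.3 FPKM with the non-targeting shRNA.

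Most of the guidance genes were expressed in these cells, and on the log2 scale of FPKM + 1 those that differed most between the libraries were higher with the DDX5 shRNA. Of the 64 genes, 50 averaged at least 1 FPKM, and ratios and counts are restricted to them. Ratios are log2 of FPKM + 1, DDX5 shRNA over non-targeting shRNA, a scale that shrinks differences between low values. On that scale 7 of the 50 genes (14%) were at least 2-fold higher with the DDX5 shRNA, compared with 4.19% of all 11413 genes past the same filter: UNC5B, SLIT3, EPHA6, SEMA3D, ROBO3, EFNB2 and SEMA3E. None of the 50 was at least 2-fold lower, compared with 2.26% of all genes. On the deposited FPKM, with nothing added, 8 of the 50 were at least 2-fold higher (6.76% of all genes), with NRP1 the additional one, and 2 were at least 2-fold lower (3.59% of all genes), SEMA3F and NTN1. NTN1, at 2.94-fold lower, then had the largest fold of the 50, just past EPHA6 at 2.93-fold higher. A ratio above 0 was found for 33 of the 50 genes (66%), beside 52.0% of all genes, and the median log2 ratio of the 50 was 0.23, beside 0.02 for all genes. Summed over the 50 genes, expression was 524.39 FPKM with the DDX5 shRNA and 369.52 FPKM with the non-targeting shRNA. The ratio of these sums was 1.42, beside 1.08 for the sums over all genes past the filter. UNC5B alone accounted for 44.52 FPKM of the difference.

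**Figure D1:**
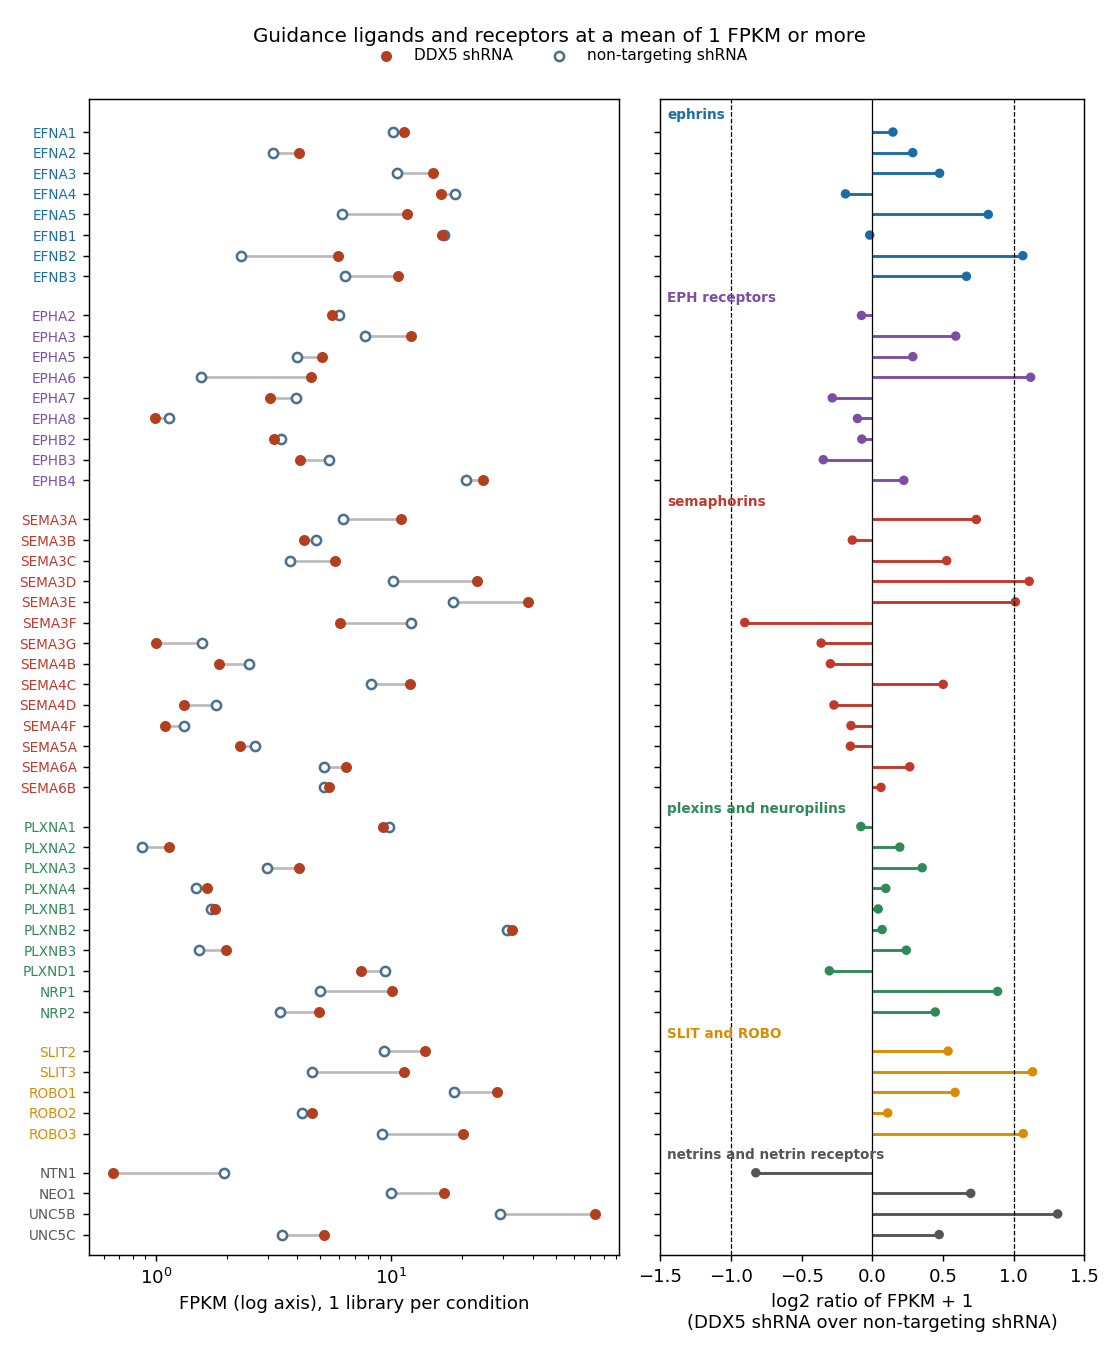
Levels (left, FPKM on a log axis, 1 point per library) and log2 ratios of FPKM + 1 (right, DDX5 shRNA over non-targeting shRNA, dashed lines at 2-fold) of the 50 guidance genes at a mean of 1 FPKM or more, coloured by ligand and receptor system. The 7 genes beyond the upper dashed line are EFNB2, EPHA6, SEMA3D, SEMA3E, SLIT3, ROBO3 and UNC5B, no gene lies beyond the lower one, and SEMA3F and NTN1 come nearest to it at -0.90 and -0.82.

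The size of the group past 2-fold depends on the constant added to FPKM and on how the libraries are scaled. With 5 added in place of 1, UNC5B was the gene still at least 2-fold higher, which is 2% of the 50, near the 1.70% of all genes at that setting. With both libraries brought to the same total FPKM, which shifts the median of all genes by -0.10, EPHA6, SEMA3D, SLIT3 and UNC5B were still at least 2-fold higher (8% of the 50), and SEMA3F was at least 2-fold lower. Over all genes that scaling gave 379 higher and 379 lower genes (3.32% each), against 478 higher and 258 lower as deposited. Just inside the 2-fold limit lay SEMA3E at 1.01 and EFNB2 at 1.07, and just outside it NRP1 at 0.89 and SEMA3F at -0.90. Around the expression filter, PLXNA2 had a mean of 1.005 FPKM and EPHB6, left out, a mean of 0.845 FPKM. PLXNA2 passed only through the DDX5 shRNA library (1.14 against 0.87 FPKM) and counts among the genes above 0. EPHA8 (0.99 FPKM with the DDX5 shRNA, 1.14 FPKM with the non-targeting shRNA) and NTN1 passed only through the non-targeting library. Both count among the genes below 0.

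**Figure D2:**
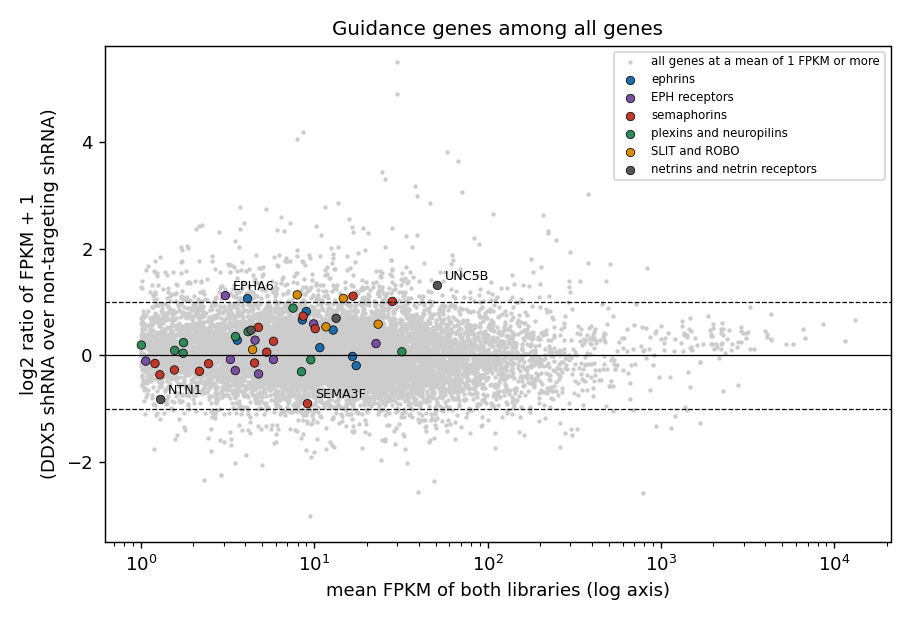
Mean FPKM of both libraries (log axis) against the log2 ratio of FPKM + 1 (DDX5 shRNA over non-targeting shRNA) for all 11413 genes at a mean of 1 FPKM or more (grey) and the 50 guidance genes (coloured). Dashed lines mark 2-fold; UNC5B has the highest ratio of the guidance genes at 1.31, well inside the range of all genes, which runs up to 5.49.

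Class 3 semaphorins, the secreted members of the family, differed in direction between chromosome 7 and chromosome 3. Promoter sequences of the strongest members on each side are shown as examples of how far these genes differ in base composition. Each stretch covers the 250 bases before the outermost start that RefSeq lists for the gene (GRCh38.p14, a different build from the hg19 named for the expression data), written 5′ to 3′ on the gene's strand, with CpG dinucleotides in capitals.
SEMA3D (minus strand, chr7:85187057-85187306): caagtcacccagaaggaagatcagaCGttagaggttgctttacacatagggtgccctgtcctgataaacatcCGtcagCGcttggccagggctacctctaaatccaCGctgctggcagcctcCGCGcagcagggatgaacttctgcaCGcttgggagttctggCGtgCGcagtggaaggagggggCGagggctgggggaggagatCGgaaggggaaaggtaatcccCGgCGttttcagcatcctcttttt
SEMA3E (minus strand, chr7:83649140-83649389): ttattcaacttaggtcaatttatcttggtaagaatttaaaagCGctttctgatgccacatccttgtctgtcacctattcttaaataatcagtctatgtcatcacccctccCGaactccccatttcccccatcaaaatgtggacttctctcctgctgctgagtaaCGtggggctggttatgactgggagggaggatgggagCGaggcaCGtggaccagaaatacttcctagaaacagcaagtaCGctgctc
SEMA3F (plus strand, chr3:50154808-50155057): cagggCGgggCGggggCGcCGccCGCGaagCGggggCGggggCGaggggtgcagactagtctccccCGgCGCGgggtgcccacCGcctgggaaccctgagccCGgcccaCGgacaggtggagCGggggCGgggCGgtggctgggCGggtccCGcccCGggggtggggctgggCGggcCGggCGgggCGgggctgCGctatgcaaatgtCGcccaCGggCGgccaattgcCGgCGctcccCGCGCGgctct
SEMA3D has 13 CpG in this window, SEMA3E 6 and SEMA3F 34. These counts do not follow the chromosome: at other listed starts SEMA3F has 42 and 2 and SEMA3E 1, SEMA3C on chromosome 7 has 39 and 2 at its 2 starts, SEMA3G on chromosome 3 has 4, and SEMA3B on chromosome 3 has 9 to 26. The median over 22199 promoters of protein-coding genes was 16, with quartiles at 5 and 25.

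On chromosome 7, where 4 class 3 semaphorin genes lie near each other, every one was higher with the DDX5 shRNA. SEMA3E, a ligand that binds plexin D1 without needing a neuropilin, was the most abundant semaphorin, at 38.08 FPKM with the DDX5 shRNA and 18.36 FPKM with the non-targeting shRNA. That is 2.07-fold higher and a log2 ratio of 1.01, which became 0.90 at the same total. SEMA3D stood at 23.24 FPKM with the DDX5 shRNA, against 10.22 FPKM with the non-targeting shRNA, a log2 ratio of 1.11. SEMA3A, the collapsin that repels axons through neuropilin-1 and A-type plexins, was at 11.03 FPKM with the DDX5 shRNA and 6.22 FPKM with the non-targeting shRNA. SEMA3C was at 5.8 FPKM with the DDX5 shRNA and 3.72 FPKM with the non-targeting shRNA. The log2 ratios of SEMA3A and SEMA3C were 0.74 and 0.53, short of 2-fold. Summed, the 4 genes gave 78.15 FPKM with the DDX5 shRNA and 38.52 FPKM with the non-targeting shRNA.

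The 3 class 3 genes on chromosome 3 lay on the other side of 0. SEMA3F, which acts through neuropilin-2 and has been described as a tumour suppressor, stood at 6.06 FPKM with the DDX5 shRNA and 12.2 FPKM with the non-targeting shRNA. That is 2.01-fold lower on the deposited FPKM. Its log2 ratio of -0.90 on FPKM + 1 was the lowest of the 50 guidance genes and reached -1.01 at the same total. SEMA3B, also considered a tumour suppressor, was at 4.25 FPKM with the DDX5 shRNA and 4.79 FPKM with the non-targeting shRNA, and SEMA3G at 1 FPKM with the DDX5 shRNA and 1.57 FPKM with the non-targeting shRNA. The ratios of SEMA3B and SEMA3G were -0.14 and -0.36. Together the 3 genes summed to 11.31 FPKM with the DDX5 shRNA and 18.56 FPKM with the non-targeting shRNA. SEMA3F thereby made up 6.77% of class 3 FPKM with the DDX5 shRNA, against 21.4% with the non-targeting shRNA. The signs of all 7 class 3 ratios were the same at the same total FPKM and after correction for transcript length and GC content. The split by chromosome was noticed in these values, so it is a description without a test. Transcript GC content and genomic span divide the same 7 genes. On chromosome 7, GC content ran from 34.9% to 39.4% and span from 179.9 to 536.9 kb. On chromosome 3, GC content ran from 58.4% to 64.8% and span from 12.1 to 34.0 kb. Chromosome, GC content and span therefore cannot be told apart here.

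**Figure D3:**
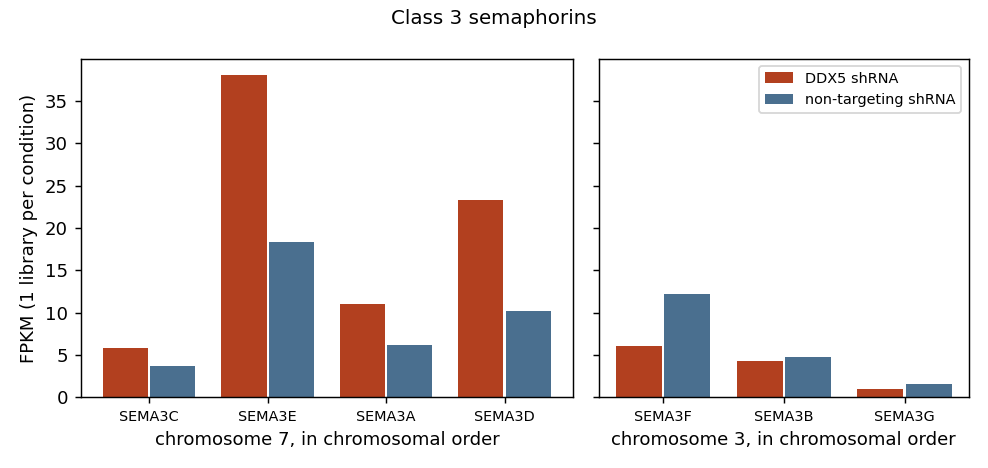
FPKM of the 7 class 3 semaphorin genes, with bars for the DDX5 shRNA library (left of each pair) and the non-targeting library (right), 1 library each and no error bars. The 4 genes on chromosome 7 are higher in the DDX5 shRNA library, up to 38.08 FPKM for SEMA3E, and the 3 genes on chromosome 3 are lower.

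The membrane-bound semaphorins differed less. SEMA4C led class 4, at 12.03 FPKM with the DDX5 shRNA and 8.2 FPKM with the non-targeting shRNA, a log2 ratio of 0.50. SEMA4B, SEMA4D (a ligand of plexin B1) and SEMA4F had ratios between -0.30 and -0.15 at levels of at most 2.5 FPKM. In class 6, whose members bind A-type plexins, SEMA6A stood at 6.44 FPKM with the DDX5 shRNA and 5.19 FPKM with the non-targeting shRNA. SEMA6B stood at 5.45 FPKM with the DDX5 shRNA and 5.18 FPKM with the non-targeting shRNA, a ratio of 0.06 whose sign turned at the same total. SEMA5A was at 2.27 FPKM with the DDX5 shRNA and 2.64 FPKM with the non-targeting shRNA. Over all 14 semaphorins past the filter the median log2 ratio was -0.04, with 7 genes above 0 and 7 below, and turned to 0.01 after correction for length and GC content.

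Among semaphorin receptors the neuropilin NRP1 had the largest difference, plexin differences were small, and NRP2 lay nearer to the highest plexin ratio than to NRP1. PLXNB2, a receptor for class 4 semaphorins, was by far the most abundant plexin, at 32.78 FPKM with the DDX5 shRNA and 31.19 FPKM with the non-targeting shRNA, a log2 ratio of 0.07 that turned negative at the same total, as did that of PLXNB1. PLXNA1 followed at 9.24 FPKM with the DDX5 shRNA and 9.83 FPKM with the non-targeting shRNA. PLXND1, the receptor for SEMA3E, was at 7.44 FPKM with the DDX5 shRNA and 9.42 FPKM with the non-targeting shRNA, so its ratio of -0.30 lay below 0 while that of its ligand lay above. The other 5 plexins past the filter (PLXNA2, PLXNA3, PLXNA4, PLXNB1 and PLXNB3) had ratios from 0.04 to 0.35 at levels of at most 4.06 FPKM. For PLXNB3, 17.5% of its transcript, in windows of 50 bases, matches another protein-coding gene, so its value depends in part on how reads were divided. The same share was 3.47% for SEMA3E and at most 1.38%, in PLXNA3, for every other guidance gene. The median ratio of the 8 plexins was 0.08 as deposited and -0.003 at the same total. NRP1, co-receptor for SEMA3A and for VEGF, stood at 10.08 FPKM with the DDX5 shRNA and 4.99 FPKM with the non-targeting shRNA, 2.02-fold apart on the deposited FPKM and 0.89 on the log2 scale of FPKM + 1. NRP2 stood at 4.94 FPKM with the DDX5 shRNA and 3.36 FPKM with the non-targeting shRNA, a ratio of 0.45.

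Every SLIT and ROBO gene past the filter had a ratio above 0, under each of the alternative scalings as well. SLIT3, a secreted repellent, stood at 11.32 FPKM with the DDX5 shRNA and 4.61 FPKM with the non-targeting shRNA, 2.46-fold higher and a log2 ratio of 1.13. SLIT2, its better known relative, was the most abundant SLIT at 14 FPKM with the DDX5 shRNA and 9.34 FPKM with the non-targeting shRNA, a ratio of 0.54. Among receptors, ROBO1 led at 28.22 FPKM with the DDX5 shRNA and 18.46 FPKM with the non-targeting shRNA, a ratio of 0.59. ROBO3, a divergent member that mammalian SLIT proteins bind only weakly, was at 20.25 FPKM with the DDX5 shRNA and 9.13 FPKM with the non-targeting shRNA. Its log2 ratio of 1.07 became 0.96 at the same total. ROBO2 had nearly the same value in both, at 4.61 FPKM with the DDX5 shRNA and 4.2 FPKM with the non-targeting shRNA. The median ratio of these 5 genes was 0.59. ROBO1 and ROBO2 are neighbours on chromosome 3, and ROBO3 lies on chromosome 11.

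The netrin system held the largest difference. UNC5B, the repulsive netrin receptor also known as a p53 target, was the most abundant of all 64 guidance genes in the DDX5 shRNA library at 73.52 FPKM, against 29 FPKM in the non-targeting library, where PLXNB2 at 31.19 FPKM was higher. It was 2.54-fold higher, with a log2 ratio of 1.31 that stayed past 2-fold under each of the 9 alternatives tried. UNC5B made up 76.4% of the FPKM of the netrin receptors with the DDX5 shRNA and 68.0% with the non-targeting shRNA. NEO1 (neogenin), a receptor for netrins and for repulsive guidance molecules, stood at 16.77 FPKM with the DDX5 shRNA and 9.96 FPKM with the non-targeting shRNA, a ratio of 0.70. UNC5C was at 5.18 FPKM with the DDX5 shRNA and 3.45 FPKM with the non-targeting shRNA, a ratio of 0.47. The ligand went the other way: NTN1 (netrin-1) stood at 0.66 FPKM with the DDX5 shRNA and 1.94 FPKM with the non-targeting shRNA. That is 2.94-fold lower on the deposited FPKM but -0.82 on the log2 scale of FPKM + 1, resting on roughly 59 fragments with the DDX5 shRNA and 175 with the non-targeting shRNA. NTN1 passed the filter on the mean only through the non-targeting library. NTN4 was at 0.04 FPKM with the DDX5 shRNA and 0.14 FPKM with the non-targeting shRNA.

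All 8 ephrins passed the filter, and 6 of them had ratios above 0. EFNB2, the arterial ephrin and partner of EPHB4, stood at 5.93 FPKM with the DDX5 shRNA and 2.31 FPKM with the non-targeting shRNA, 2.57-fold higher and a log2 ratio of 1.07, which became 0.98 at the same total. EFNB3 was at 10.7 FPKM with the DDX5 shRNA and 6.37 FPKM with the non-targeting shRNA. EFNB1 barely differed, at 16.5 FPKM with the DDX5 shRNA and 16.72 FPKM with the non-targeting shRNA, and was the most abundant ephrin-B in both libraries. Its ratio turned positive after correction for length and GC content. Among the lipid-anchored A-type ephrins, EFNA5 had the largest ratio, 0.82, at 11.74 FPKM with the DDX5 shRNA and 6.21 FPKM with the non-targeting shRNA. EFNA4 was the most abundant, at 16.23 FPKM with the DDX5 shRNA and 18.65 FPKM with the non-targeting shRNA, and the only A-type ephrin below 0, at -0.19. EFNA3 stood at 15.1 FPKM with the DDX5 shRNA and 10.57 FPKM with the non-targeting shRNA. EFNA1 (0.15) and EFNA2 (0.29) had smaller log2 ratios. EFNA1, EFNA3 and EFNA4 are neighbours on chromosome 1, so 1 neighbourhood held ratios on both sides of 0.

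EPH receptors did not share a direction, with 4 of 9 above 0 and a median of -0.07 (0.003 after correction for length and GC content). EPHB4, the receptor of ephrin-B2, was the most abundant, at 24.52 FPKM with the DDX5 shRNA and 20.86 FPKM with the non-targeting shRNA, a ratio of 0.22. EPHA3 led the A class, at 12.12 FPKM with the DDX5 shRNA and 7.71 FPKM with the non-targeting shRNA, a ratio of 0.59. EPHA6 was the only receptor of this family past 2-fold, at 4.57 FPKM with the DDX5 shRNA and 1.56 FPKM with the non-targeting shRNA, a ratio of 1.12 that rests on roughly 274 fragments with the DDX5 shRNA and 94 with the non-targeting shRNA. EPHA5 stood at 5.1 FPKM with the DDX5 shRNA and 4 FPKM with the non-targeting shRNA. EPHA2, a receptor often studied in carcinoma, was at 5.63 FPKM with the DDX5 shRNA and 5.99 FPKM with the non-targeting shRNA. EPHB3, a receptor of intestinal crypts, had the lowest ratio of the family, -0.35, at 4.08 FPKM with the DDX5 shRNA and 5.46 FPKM with the non-targeting shRNA. EPHA7 (-0.28), EPHA8 (-0.10) and EPHB2 (-0.07) also lay below 0, the last of these turning positive after correction for length and GC content.

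The remaining 14 genes had means below 1 FPKM: EPHA4, EPHA10, EPHB1, EPHB6, SEMA4A, SEMA4G, SEMA6C, SEMA6D, SEMA7A, PLXNC1, SLIT1, NTN4, UNC5A and UNC5D. None exceeded 0.84 FPKM with the DDX5 shRNA or 0.89 FPKM with the non-targeting shRNA, and EPHB1 was listed at 0 in the DDX5 shRNA library and at 0.01 FPKM in the non-targeting library.

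Ligands and receptors as classes resembled each other. Of 25 ligands, 15 had ratios above 0 and 4 were at least 2-fold higher, with a median of 0.27. Of 25 receptors, 18 had ratios above 0 and 3 were at least 2-fold higher, with a median of 0.22. Ligands and the receptors named with them above did not share a side throughout. EFNB2 and EPHB4, SLIT3 and ROBO1, and SEMA3A and NRP1 all lay above 0. Of the A-type plexins, PLXNA1 lay below 0, at -0.08, opposite to SEMA3A and SEMA6A, and PLXNA2, PLXNA3 and PLXNA4 lay above 0. SEMA3E and PLXND1, SEMA3F and NRP2, NTN1 and UNC5B, and NTN1 and NEO1 lay on opposite sides of it, as did SEMA4D and PLXNB1, although PLXNB1 turned negative at the same total.

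Guidance genes spread over long stretches of genome tended to have the higher ratios. Of 24 guidance genes spanning 100 kb or more, 19 had a ratio above 0 and the median was 0.50. Among 26 shorter ones 14 did, with a median of 0.05, or -0.04 at the same total. All genes past the filter showed no such difference, with medians of 0.05 for the 2092 genes known to span 100 kb or more and 0.02 for 9101 shorter ones. Across the 50 guidance genes, the log2 ratio had a Spearman correlation of 0.31 with span, -0.43 with transcript GC content and 0.44 with mean FPKM. Across all genes the correlation was -0.04 with span, 0.05 with GC content and -0.09 with mean FPKM. Genes within 1 pair of libraries are not independent replicates, members of a family share sequence and composition, and the limit of 100 kb was chosen with the values known. After correction for transcript length and GC content, the same 7 genes were at least 2-fold higher.

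**Figure D4:**
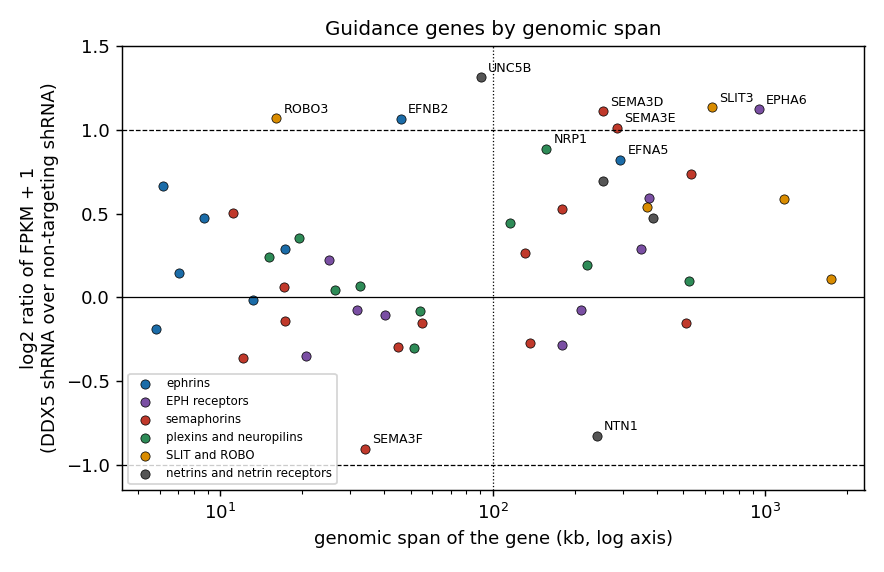
Genomic span of each of the 50 guidance genes (kb, log axis, RefSeq GRCh38.p14) against its log2 ratio of FPKM + 1 (DDX5 shRNA over non-targeting shRNA), with a dotted line at 100 kb and dashed lines at 2-fold. Of the 24 genes right of the dotted line 19 lie above 0, whereas ROBO3, EFNB2 and UNC5B are the genes past 2-fold on its left.

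Promoters of the guidance genes were searched for motifs of stress programmes, on both strands of the 250 bases before each listed start. The C/EBP-ATF response element, TGATGNAA, occurred in none of 10 promoters of 6 genes at least 2-fold higher, in 1.59% of 63 promoters of guidance genes past the filter, namely 1 of SEMA3C, and in 2.35% of 22199 promoters of protein-coding genes. The core of the hypoxia response element, ACGTG, occurred in 20% of those 10 promoters, in 19.05% of the 63 and in 20.2% of all. Windows of 1 gene can overlap, so promoters are not independent. Counted by gene, ACGTG occurred in 2 of 6, 8 of 43 and 4012 of 15843 genes, in the same order. The SEMA3E window printed above holds 3 of these ACGTG matches, counting both strands, of which 2 are the same CACGTG read on either strand. UNC5B had no promoter in the table used.

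Partners and effectors of the guidance receptors were then counted in 4 lists, which share members and do not cover all such genes. The lists mix intracellular effectors with ligands, co-receptors and adhesion proteins. FLRT1, SDC3, GPC1, NTNG2 and BMP4, named below, are of the latter kind. The counts therefore give no direction for downstream genes as a whole. Over all genes the shares past 2-fold on FPKM + 1 were 4.19% upward and 2.26% downward, and each count is a matter of at most 3 genes. In the Eph and ephrin effector list, 3 of 26 genes past the filter (11.5%) were at least 2-fold higher and 1 (3.85%) was lower. FYN, a Src-family kinase recruited by several guidance receptors and present in 3 of the lists, stood at 24.67 FPKM with the DDX5 shRNA and 2.55 FPKM with the non-targeting shRNA. The adaptor gene GRB10 had a log2 ratio of 1.38 and the G-protein regulator gene RGS3 one of 1.23. LYN, another Src-family kinase, was the lower gene, at 0.92 FPKM with the DDX5 shRNA and 2.85 FPKM with the non-targeting shRNA. In the semaphorin and plexin list, 2 of 28 genes (7.14%) were at least 2-fold higher, FYN and CRMP1 (6.51 FPKM with the DDX5 shRNA, 0.83 FPKM with the non-targeting shRNA), a collapsin response mediator, and none was lower. Within that list PTK7 had a ratio of 0.92 and the related mediator DPYSL5 -0.80. CRMP1, 1 of the 2 higher genes, was below 1 FPKM with the non-targeting shRNA, and LYN was below 1 FPKM with the DDX5 shRNA. Each passed the filter on the mean only through the library where it was high, so these counts rest partly on such genes.

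In the Slit and Robo list, 2 of 23 genes (8.70%) were at least 2-fold higher and 1 (4.35%) lower. FLRT1, which encodes an adhesion protein of a family with members that bind UNC5 and ROBO receptors, was at 10.98 FPKM with the DDX5 shRNA and 2.52 FPKM with the non-targeting shRNA, and the heparan sulfate proteoglycan gene SDC3 at 16.08 FPKM with the DDX5 shRNA and 6.44 FPKM with the non-targeting shRNA. GPC1, a proteoglycan that binds SLIT, was at 12.74 FPKM with the DDX5 shRNA and 26.9 FPKM with the non-targeting shRNA, a ratio of -1.02. In the netrin, RGM and DCC list, 3 of 24 genes (12.5%) were at least 2-fold higher, FYN again among them, and 1 (4.17%) lower. TRIM9, a ubiquitin ligase that binds DCC, stood at 10.82 FPKM with the DDX5 shRNA and 1.32 FPKM with the non-targeting shRNA, and NTNG2 (netrin-G2) at 3.89 FPKM with the DDX5 shRNA and 0.44 FPKM with the non-targeting shRNA. NTNG2, 1 of the 3 higher genes, passed the filter on the mean only through the DDX5 shRNA library. SIAH1, a ligase that targets DCC, had a ratio of 0.97. The lower gene was BMP4, a bone morphogenetic protein, at 1.31 FPKM with the DDX5 shRNA and 8.63 FPKM with the non-targeting shRNA.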

How the data were processed

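The authors deposited 1 table of FPKM with a column for each library, in 2 decimals, per the file headers. The tools named in the submitters' processing notes are RSEM 1.2.8, Bowtie2 and HISAT, and the build is hg19; which tool did what is not given in the sources used here, nor are the annotation, strand setting and filters. In the GENCODE annotation, 16 of the 50 genes given ratios overlap an exon of another gene. Where the 2 genes lie on opposite strands, reads from the overlap cannot be told apart without strand. Antisense transcripts of this kind lie over EFNB2, SLIT3, SEMA3F and NRP1. EFNA3, EFNA4, PLXNB3 and SEMA3B overlap a gene on the same strand, where strand would not separate the reads.

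Columns were matched to conditions by sample title, and Entrez numbers to symbols through RefSeq (15289 of 16021 rows). Ratios are log2 of FPKM + 1 for the 11413 genes averaging at least 1 FPKM, and with a single library in each group nothing was tested. The longest coding transcript in GENCODE 29 supplied transcript length and GC content (97.9% of these genes). Depth was estimated from low FPKM of short genes with 1 transcript: at the best step, 63.6% of values with the DDX5 shRNA and 65.2% with the non-targeting shRNA lay within 0.15 of a whole fragment, where a step fixed beforehand would give 30% by chance. Fragment numbers are FPKM times full transcript length times that depth and can be too high. Promoter entries (RefSeq, GRCh38.p14) existed for 55 of 64 genes. Of their 85 promoters, 58 had bases just after the start that were found near the beginning of a GENCODE transcript of the gene.

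The genes and lists were chosen with earlier results of these data known. Named are DDX5, all members past 2-fold, the most abundant and the most different member of each family, further members past the filter, and up to 3 leading genes of each effector list; LYN, CRMP1, NTNG2 and BMP4 were added after their values were seen. A further effector list is not reported here. Other settings tried were a pseudocount of 0.1 or 5, a minimum mean of 5 FPKM or none, equal total FPKM, subtracting the median or the 30% trimmed mean of all ratios, and, after seeing the data, no pseudocount and removal of trends with length and GC content (10 bins of each). The counting was tested on simulated data. Software was Python 3.11.15 with matplotlib 3.10.9, scipy 1.17.1, pandas 2.3.3 and numpy 2.4.6.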

Additional observations from a re-analysis of the deposited data

How the results depend on the processing

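The 7 genes at least 2-fold higher as deposited were the same 7 without a filter and after correction for length and GC content. With a pseudocount of 0.1 they were joined by NRP1, and 1 gene, NTN1, was at least 2-fold lower. With no pseudocount the same 8 were higher and 2, NTN1 and SEMA3F, were lower. A pseudocount of 5, which shrinks low genes by construction, left 1, UNC5B (2% of the 50, beside 1.70% of all genes). At the same total FPKM 4 were higher and 1, SEMA3F, was lower, and subtracting the median or the trimmed mean gave 6, without SEMA3E. The share of all genes at least 2-fold higher was 6.51% with a pseudocount of 0.1, 6.76% with none, 3.14% without a filter, 3.83% at a minimum of 5 FPKM, 3.32% at the same total, 3.87% after subtracting the median, 3.84% after the trimmed mean and 3.96% after the length and GC correction. A minimum mean of 5 FPKM kept 26 genes, of which 5 were at least 2-fold higher and 20 lay above 0. The median log2 ratio of the guidance genes, 0.23 as deposited, was 0.33 with no pseudocount, 0.32 with 0.1, 0.13 with 5, 0.14 without a filter and 0.52 at a minimum of 5 FPKM. That minimum, which drops the low members, also gave medians of 0.22 for EPH receptors, 0.50 for semaphorins, 1.005 for the netrin system and 0.83 for SLIT and ROBO, but 0.31 for ephrins and -0.006 for plexins and neuropilins (0.38 for ephrins and 0.15 for plexins and neuropilins at a minimum of 1 FPKM). No gene past 2-fold changed sign under the 9 alternatives. Members whose sign turned were PLXNB1, PLXNB2 and SEMA6B at the same total, and EFNB1 and EPHB2 after the length and GC correction. No paired analysis was possible because each condition has 1 library. Depth limits the low members most: of the 50 genes given ratios, EFNA2 rests on the fewest fragments, roughly 58 with the DDX5 shRNA and 45 with the non-targeting shRNA.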

Other observations

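Among guidance genes below a mean of 1 FPKM, SEMA4A, SLIT1 and UNC5D were near the floor in both libraries and lower with the non-targeting shRNA. SEMA4A was listed at 0.55 FPKM with the DDX5 shRNA and 0.05 FPKM with the non-targeting shRNA, SLIT1 at 0.55 FPKM with the DDX5 shRNA and 0.09 FPKM with the non-targeting shRNA, and UNC5D at 0.5 FPKM with the DDX5 shRNA and 0.09 FPKM with the non-targeting shRNA. These 3 genes were picked after their values were seen. For SLIT1 the values correspond to roughly 66 fragments with the DDX5 shRNA and 11 with the non-targeting shRNA, and part of its transcript is shared by annotation with the read-through gene ARHGAP19-SLIT1. In the same order, SEMA4A rests on roughly 27 and 3 fragments and UNC5D on 65 and 12. NTN4, also below the filter, went the other way, with roughly 2 fragments with the DDX5 shRNA and 8 with the non-targeting shRNA.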
